A study of Mus musculus with 12 samples.

Results

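The Sox genes encode transcription factors that bind DNA through a high mobility group (HMG) box. The 8 described here are those that act in the oligodendrocyte lineage, namely Sox8, Sox9 and Sox10 of the SoxE group, Sox5 and Sox6 of SoxD, Sox2 of SoxB1, and Sox4 and Sox11 of SoxC. The rule was the names alone, and all 8 were found among the 14107 genes of the deposited table.

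RNA was sequenced from O4-positive cells of cortex and corpus callosum of mouse pups at postnatal day 7, taken with magnetic beads. The O4 antibody marks late oligodendrocyte precursors and immature oligodendrocytes. The 5 Chd7iKO libraries came from pups with the genotype PDGFRaCre; Chd7flox/flox, in which Cre is driven from the promoter of Pdgfra, a receptor gene of oligodendrocyte precursors. The 7 Control libraries came from littermates with the genotype Chd7flox/flox and no Cre by their labels. Pups of both genotypes were given tamoxifen at 20 mg/ml by subcutaneous injection, with 40 µl on day 1 and 30 µl on day 4 after birth. Chd7 is a chromatin remodeller, and the question is what its deletion in this lineage does to the Sox transcripts. Cre without floxed Chd7 was in none of the groups, so an effect of Cre and an effect of the deletion cannot be told apart. The sources used here do not give the number of pups behind a library, so p-values measure the spread between these libraries, which may be technical in part.

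Sox10 is required for the terminal differentiation of oligodendrocytes and for the expression of myelin genes, and its close relative Sox8 overlaps with it in function. Sox9 acts earlier, in the specification of glial cells, and remains high in astrocytes. Sox5 and Sox6 are known to hold back precursor differentiation by interfering with SoxE proteins, Sox2 keeps neural progenitors and precursors in an immature state, and Sox4 and Sox11 are typical of immature neural cells and lower in mature oligodendrocytes.

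Each library held 30384507 to 35512310 estimated counts, and the lowest count of any of the 8 genes in any library was 1945. Levels are given as CPM, that is counts put on a shared scale of library size, and log2 fold changes are Chd7iKO over Control. Chd7 itself, counted over the whole gene, had 281, 235, 258, 207 and 227 CPM in Chd7iKO libraries, against 179 to 270 CPM (median 240 CPM) in Control libraries, and these groups overlapped. A count over the whole gene does not check the deletion. In earlier results of these data, Controls 3 and 6 stood apart from the other controls. For instance Esr1, chosen after its values were seen, had 138 to 171 CPM in Chd7iKO libraries, 81.7 CPM in Control 3, 44.7 CPM in Control 6 and 0.532 to 1.26 CPM in the other 5 controls. Chd7iKO 4 and 5 had the highest summed levels of endothelial markers, 748 and 861 CPM, against at most 501 CPM in a control.

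Of the 8 Sox genes, 3 were lower in Chd7iKO cells (Sox8, Sox10 and Sox5) and 0 were higher, while 5 did not pass the test. Among all genes tested, 13.8% were lower and 15.8% higher (29.5% either way) by the same rule, an adjusted p under 0.05 in edgeR's quasi-likelihood test. At an unadjusted p under 0.05, 5 of the 8 were lower and 0 higher, against 19.4% lower and 21.3% higher among all genes tested. DESeq2 called 4 of the 8 lower and 0 higher, where 15.9% of all genes were lower, and limma voom 6 lower and 0 higher, where 21.8% were lower. Other settings called more or fewer. Without Controls 3 and 6, 5 were lower and 0 higher, against 1989 of 14105 genes tested lower. Without Chd7iKO 4 and 5, 2 were lower (Sox8 and Sox10) and 0 higher, against 5.95% of all genes lower. With a score of other cell types in the model, 1 was lower (Sox8) and 1 higher (Sox11), against 5.24% of all genes lower, and the median log2 fold change of the 8 genes was -0.11. In the authors' deposited table, 3 of the 8 were lower and 0 higher at an adjusted p under 0.05, against 11% and 15.3% of genes. With all libraries in edgeR and no score, the median log2 fold change of the 8 genes was -0.20, against 0.0014 over all genes tested. In these bulk samples, fewer cells of a type and less RNA per cell cannot be told apart.

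**Figure D1:**
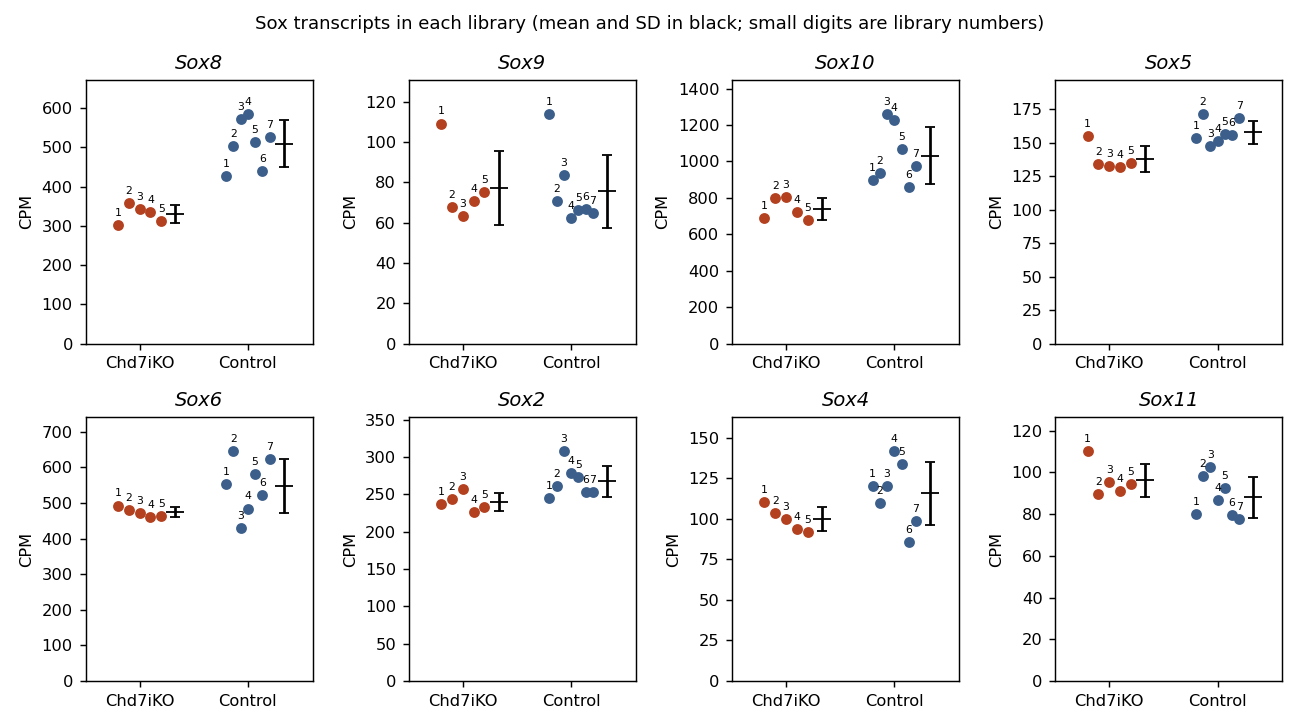
CPM of each of the 8 Sox genes (vertical axes, starting at 0) in the 5 Chd7iKO libraries (left in each panel) and the 7 Control libraries (right); points are libraries and bars are the mean with its SD. Sox8 and Sox10 separate the groups completely, Sox5 separates all but Chd7iKO 1, and Sox9 shows a high library in each group.

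Sox8 had the largest difference among the 8 genes. It lies on chromosome 17, chr17:25565892-25570686 on the minus strand (mm10). Its levels were 302, 357, 343, 336 and 312 CPM in Chd7iKO libraries, against 426 to 584 CPM (median 513 CPM) in Control libraries. Every Chd7iKO library lay below every control. This held for 2 of the 8 Sox genes and for 6.32% of all genes tested, and the opposite for 0 of the 8 and 6.2%. The means were 330 ± 22.7 CPM in Chd7iKO cells and 509 ± 60.2 CPM in Control cells (SD, n = 5 and n = 7). Sox8 fell by 35.2%, or by 0.63 on the log2 scale (SE 0.08, 95% interval of the log2 fold change -0.80 to -0.45, edgeR adjusted p = 1.66e-04). A two-sided exact permutation test over libraries gave p = 0.00126, the smallest it can give. Sox8 passed in each of the 26 alternative analyses, with log2 fold changes of -0.66 to -0.49. An antisense gene, 2810468N07Rik, shares 329 exonic bases with Sox8 on the opposite strand. The libraries were made with a stranded kit, but the sources used here do not say whether the counting used strand.

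Sox10 was the most abundant of the 8 genes. It lies at chr15:79154908-79165240 on the minus strand. Its levels were 690, 798, 805, 721 and 678 CPM in Chd7iKO libraries, against 860 to 1260 CPM (median 975 CPM) in Control libraries, again with no overlap. The means were 738 ± 59.8 CPM in Chd7iKO cells and 1032 ± 158 CPM in Control cells (SD), with a log2 fold change at -0.48 (SE 0.10, 95% interval -0.70 to -0.27, edgeR adjusted p = 0.00334). The two-sided exact permutation test gave p = 0.00253. With a score of astrocyte, neuronal, microglial, endothelial and mural markers as a covariate, the log2 fold change was -0.31 and the call ended (edgeR adjusted p = 0.0704). That score ran from -0.15 to 0.91 in Chd7iKO libraries and from -0.72 to 0.38 in Control libraries, so it moved with the groups. Its genes include Cspg4 and S100b, which are also in the lists of precursor markers or SoxE targets. The score's part in the difference was not tested. With Chd7iKO 4 and 5 left out, Sox10 was still called (log2 fold change -0.43, adjusted p = 0.0426).

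Sox9, the third SoxE gene, lies at chr11:112782224-112787760 on the plus strand and did not pass. It had 109, 67.9, 63.1, 70.6 and 75.01 CPM in Chd7iKO libraries, against 62.4 to 114 CPM (median 66.8 CPM) in Control libraries. A library in each group, Chd7iKO 1 and Control 1, stood above the rest. The log2 fold change was 0.03 (SE 0.16, 95% interval -0.32 to 0.38, edgeR adjusted p = 0.909), and without Chd7iKO 1 it was -0.13. Both libraries also had the highest sums of 12 astrocyte markers in their groups, 5751 CPM in Chd7iKO 1 and 7706 CPM in Control 1. The sums elsewhere were 3621 to 5025 CPM in Chd7iKO and 3511 to 4827 CPM in Control libraries. The part of astrocyte RNA in these levels was not tested.

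Sox5 was lower by a small margin. It lies at chr6:143828425-144781977 on the minus strand. Levels were 155, 134, 133, 132 and 135 CPM in Chd7iKO libraries, against 147 to 171 CPM (median 156 CPM) in Control libraries. Chd7iKO 2 to 5 lay below every control, while Chd7iKO 1 lay within their range. The means were 138 ± 9.70 CPM in Chd7iKO cells and 158 ± 8.81 CPM in Control cells (SD), with a log2 fold change at -0.20 (SE 0.05, 95% interval -0.31 to -0.08, edgeR adjusted p = 0.0150). The two-sided exact permutation test gave p = 0.00631. The call ended without Chd7iKO 4 and 5 (log2 fold change -0.17, SE 0.07, adjusted p = 0.127) and with the score of other cells in the model (-0.17, SE 0.07, adjusted p = 0.122), so the fold change was close to its value above while its error was larger. The antisense gene Sox5os1 shares 1330 exonic bases with Sox5.

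Sox6, at chr7:115470872-116038796 on the minus strand, did not pass. It had 493, 482, 473, 460 and 464 CPM in Chd7iKO libraries, against 429 to 645 CPM (median 553 CPM) in Control libraries. All 5 Chd7iKO libraries were below the control median, with Control 3 below them all and Control 4, at 485 CPM, among them. The log2 fold change was -0.21 (SE 0.09, 95% interval -0.40 to -0.02, edgeR adjusted p = 0.0862). Without Control 3 it was -0.26 (adjusted p = 0.0190), and without Controls 3 and 6 it was -0.28 (adjusted p = 0.0134).

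Sox2 lies at chr3:34650405-34652461 on the plus strand, inside the long non-coding gene Sox2ot. It had 237, 244, 257, 227 and 233 CPM in Chd7iKO libraries, against 245 to 308 CPM (median 261 CPM) in Control libraries, and Chd7iKO 3 was the only Chd7iKO library inside the range of the controls. The log2 fold change was -0.16 (SE 0.06, 95% interval -0.28 to -0.03) and missed the threshold in edgeR (adjusted p = 0.0536), while DESeq2 called it (adjusted p = 0.0318). In edgeR it also passed without Control 1 (adjusted p = 0.0309), without Control 6 (0.0475) or without Chd7iKO 3 (0.0385). Sox2ot had 67.3 ± 2.11 CPM in Chd7iKO cells and 70.3 ± 5.00 CPM in Control cells (SD; log2 fold change -0.06, edgeR adjusted p = 0.425), and in the annotation it shares 0 exonic bases with Sox2.

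The SoxC genes had opposite signs and neither passed. Sox4, at chr13:28948919-28953713 on the minus strand, had 111, 103, 99.96, 93.8 and 91.6 CPM in Chd7iKO libraries, against 85.9 to 141 CPM (median 120 CPM) in Control libraries. All 5 Chd7iKO libraries lay within the range of the controls, with Control 6 the lowest library (log2 fold change -0.21, SE 0.11, 95% interval -0.44 to 0.02, edgeR adjusted p = 0.155). Without Control 6 the log2 fold change was -0.27 (adjusted p = 0.0303). The long non-coding gene Gm26735 on the opposite strand shares 2616 exonic bases with Sox4. Sox11, at chr12:27334264-27342574 on the minus strand, had 110, 89.7, 95.4, 91.2 and 94.5 CPM in Chd7iKO libraries, against 77.8 to 102 CPM (median 86.8 CPM) in Control libraries. Every Chd7iKO library was above the control median, and the log2 fold change was 0.13 (SE 0.08, 95% interval -0.04 to 0.29, edgeR adjusted p = 0.252). With the score of other cells in the model it was 0.27 and passed (adjusted p = 0.0398). The two-sided exact permutation test over libraries, unadjusted over the 8 genes, gave p = 0.0177 for Sox2, 0.0669 for Sox6, 0.135 for Sox4, 0.154 for Sox11 and 0.827 for Sox9.

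**Figure D2:**
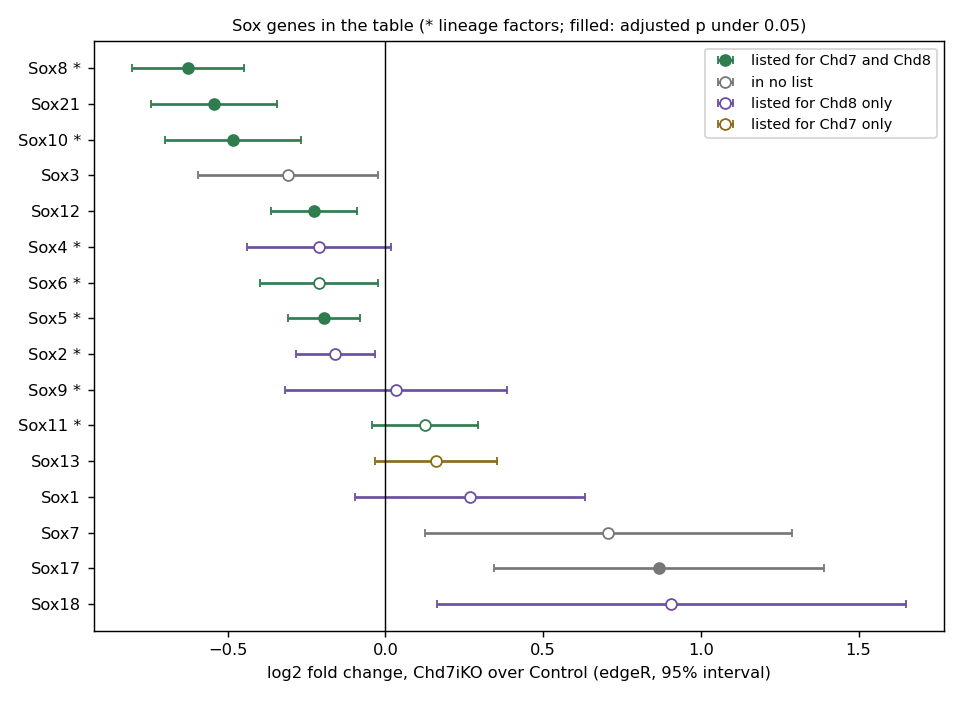
Log2 fold change of Chd7iKO over Control (horizontal axis) for the 8 lineage Sox genes (starred) and the 8 other Sox genes in the table, with 95% intervals from edgeR; filled points passed an adjusted p of 0.05, and colours give the deposited list that names the gene (Chd7 and Chd8, Chd7 only, Chd8 only or none). Sox8, Sox21 and Sox10 lie farthest to the left, and Sox7, Sox17 and Sox18 lie farthest to the right with wide intervals.

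The table held 8 further Sox genes, of which 2 were lower, 1 higher and 5 not called. That is 25% lower and 12.5% higher, against 13.8% lower and 15.8% higher among all genes tested. The 3 called either way are a share near the 29.5% of all genes. Sox21, a SoxB2 gene that counters SoxB1 activity in neural progenitors, had 70.3, 68.8, 73.2, 57.2 and 56.3 CPM in Chd7iKO libraries, against 74.5 to 104 CPM (median 97.2 CPM) in Control libraries. The groups did not overlap (log2 fold change -0.54, SE 0.09, edgeR adjusted p = 9.99e-04). Sox12, the third SoxC gene, fell by 0.23 on the log2 scale (adjusted p = 0.0171), a call that ended without Chd7iKO 5 (0.0510), without Chd7iKO 4 and 5, or with the score of other cells in the model.

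Sox7, Sox17 and Sox18 form the SoxF group, which acts in endothelial cells. Sox17 had 9.97 ± 3.59 CPM in Chd7iKO cells and 5.46 ± 1.68 CPM in Control cells (SD; log2 fold change 0.87, SE 0.24, edgeR adjusted p = 0.0172), and the call ended without Chd7iKO 5 (adjusted p = 0.0655), without Chd7iKO 4 and 5 (0.191) and with the score of other cells in the model (0.303). Sox7 (0.71, adjusted p = 0.0639) and Sox18 (0.91, adjusted p = 0.0634) did not pass, while DESeq2 called both (adjusted p = 0.0338 and 0.0320). The 3 genes summed to 18.0 to 38.4 CPM in Chd7iKO libraries, highest in Chd7iKO 5, against 8.52 to 21.3 CPM in Control libraries. The sum of 11 endothelial markers was likewise highest in Chd7iKO 5 and ran from 388 to 861 CPM in Chd7iKO libraries, against 224 to 501 CPM in Control libraries. The part of endothelial RNA in the SoxF levels was not tested.

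Levels of different genes were compared per length, as CPM per kilobase of exonic sequence. In Chd7iKO cells the order was Sox10 (242), Sox2 (117), Sox8 (106), Sox6 (32.0), Sox4 (20.8), Sox9 (18.7), Sox11 (11.6) and Sox5 (9.58 CPM per kilobase). In Control cells it was Sox10 (338), Sox8 (163), Sox2 (130), Sox6 (37.0), Sox4 (24.1), Sox9 (18.2), Sox5 (10.97) and Sox11 (10.6 CPM per kilobase). The ranges over libraries of the neighbours Sox2 and Sox8 and of Sox4 and Sox9 overlapped in both groups. In Control cells those of Sox6 and Sox4 and of Sox5 and Sox11 overlapped too. Sox10 stood clear of all others, at 222 to 264 CPM per kilobase in Chd7iKO and 282 to 413 CPM per kilobase in Control libraries.

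With the GENCODE lengths, the order of Sox8 and Sox2 within a library was opposite in the groups. The ratio of Sox8 to Sox2, per kilobase, was 0.839 to 0.977 in Chd7iKO libraries, against 1.14 to 1.38 in Control libraries. By these lengths Sox2 was the higher gene in 5 of 5 Chd7iKO libraries and Sox8 in 7 of 7 controls. The order rests on a length of 2.057 kilobases for Sox2, whose RefSeq start lies further upstream. A longer Sox2 would raise the ratio and could place Sox8 above Sox2 in both groups. The ratio separates the groups whatever lengths are used. Sox8 made up 17.8% to 19.9% of the summed level of the 8 genes in Chd7iKO libraries, against 20.7% to 23.8% in Control libraries. The share of Sox2 was 20.3% to 21.6% in Chd7iKO and 16.5% to 19.4% in Control libraries, and that of Sox11 1.84% to 2.43% in Chd7iKO and 1.27% to 1.68% in Control libraries. These shares sum to a whole, so a lower share of Sox8 raises the others.

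**Figure D3:**
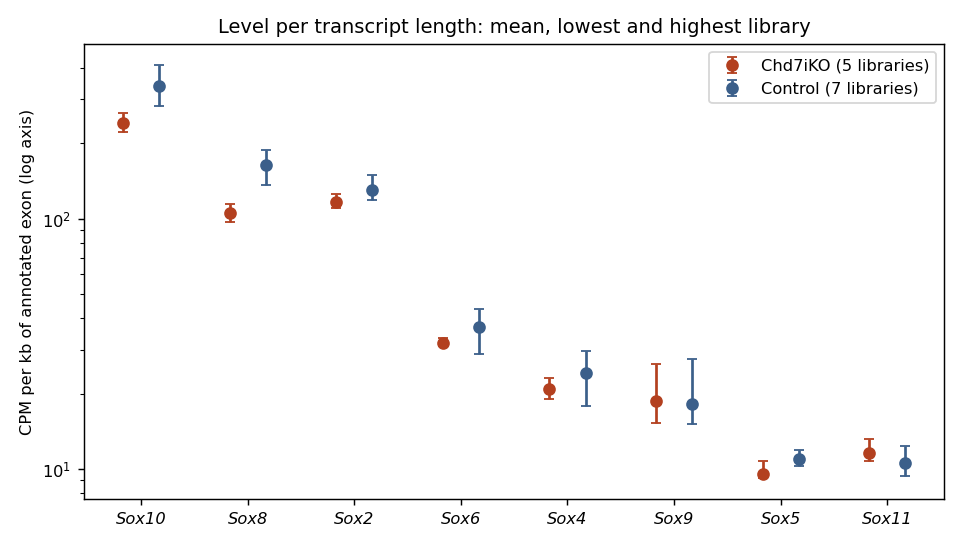
Level of each of the 8 Sox genes per kilobase of exonic sequence (log axis, CPM per kilobase) in Chd7iKO libraries (left of each pair) and Control libraries (right); points are means and bars run to the lowest and highest library. Sox10 is the highest gene in both groups. With the GENCODE lengths used, Sox8 lies below Sox2 in Chd7iKO libraries and above it in Control libraries.

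The lower levels of Sox8 and Sox10 were set against Olig2, a transcription factor that defines the lineage. Olig2 did not pass the test (718 ± 61.5 CPM in Chd7iKO and 811 ± 111 CPM in Control cells, SD, with a log2 fold change of -0.18, edgeR adjusted p = 0.163). Sox8 per Olig2 was 0.434 to 0.486 in Chd7iKO libraries, against 0.558 to 0.683 in Control libraries. Sox10 per Olig2 was 0.943 to 1.10 in Chd7iKO libraries, against 1.19 to 1.38 in Control libraries. For both genes the groups stayed apart, while the ratios of the other 6 Sox genes to Olig2 overlapped between the groups. Per 1000 CPM of 12 precursor markers, Sox8 was at 18.1 to 20.0 CPM in Chd7iKO and 20.6 to 26.3 CPM in Control libraries. On that scale Sox10 overlapped between the groups, at 41.4 to 44.7 CPM in Chd7iKO and 43.4 to 58.0 CPM in Control libraries. Sox11 separated the groups in the other direction, at 4.99 to 6.60 CPM in Chd7iKO and 3.54 to 4.87 CPM in Control libraries. The means of Sox2, Sox4, Sox5, Sox6 and Sox9 were also higher in Chd7iKO cells on that scale, with overlapping ranges. The precursor markers include Pdgfra, whose promoter drives the Cre, and summed to 16014 to 18004 CPM in Chd7iKO libraries and 19397 to 23316 CPM in Control libraries.

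Lists deposited by the authors name the genes bound by Chd7 and by its relative Chd8 in precursors. Of the 8 Sox genes, 5 (62.5%) are in the Chd7 list, against 39.4% of the genes tested, and all 8 are in a Chd8 list, against 66.8%. Sox5, Sox6 and Sox10 are listed as Chd7-bound both in precursors and in oligodendrocytes, and Sox8 and Sox11 in precursors only. Sox2, Sox4 and Sox9 are listed with Chd8 alone. All 3 Sox genes that fell are in the Chd7 list, where 16.2% of the tested genes were lower and 13.1% higher, and so are Sox6 and Sox11, which did not pass. Among the genes listed in both cell stages, 23.7% were lower and 12.9% higher, and among those with Chd8 alone 13.0% were lower and 15.0% higher. The lists give gene names without positions, and the sources used here do not state the rule that tied a binding site to a gene.

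The promoters of Sox8, which fell, and of Sox11 and Sox2, which did not pass, are shown. Sox11 had a positive and Sox2 a negative log2 fold change, and Sox2 was called lower in 8 of the 26 alternatives. RefSeq's promoter table (GRCm38.p6) matched 6 of the 8 genes, all but Sox9 and Sox10. The starts it gives for Sox11 and Sox2 lie upstream of the gene coordinates given above. The 250 bases before the annotated start are given 5′ to 3′ on the strand of the gene, at chr17:25570687-25570936 for Sox8, chr12:27342719-27342968 for Sox11 (both minus strand) and chr3:34649745-34649994 for Sox2 (plus strand). Capitals mark the Sox core ACAAT, its second form ACAAAG, the motif CCAAT and the so-called GC box, CCGCCC, each searched on both strands.
Sox8: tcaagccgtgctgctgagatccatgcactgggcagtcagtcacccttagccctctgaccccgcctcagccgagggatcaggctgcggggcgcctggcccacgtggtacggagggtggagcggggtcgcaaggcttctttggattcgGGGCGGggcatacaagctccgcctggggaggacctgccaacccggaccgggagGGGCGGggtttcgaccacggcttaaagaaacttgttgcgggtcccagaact
Sox11: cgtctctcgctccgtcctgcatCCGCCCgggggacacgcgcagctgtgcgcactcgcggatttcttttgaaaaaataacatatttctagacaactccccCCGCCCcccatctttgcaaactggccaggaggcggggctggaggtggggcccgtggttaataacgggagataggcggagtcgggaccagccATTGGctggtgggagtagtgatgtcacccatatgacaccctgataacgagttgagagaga
Sox2: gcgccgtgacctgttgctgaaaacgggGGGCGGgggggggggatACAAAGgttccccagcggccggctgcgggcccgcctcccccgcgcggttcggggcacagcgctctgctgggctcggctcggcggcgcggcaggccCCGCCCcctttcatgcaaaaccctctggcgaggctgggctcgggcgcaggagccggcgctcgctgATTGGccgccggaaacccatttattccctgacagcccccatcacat
No base fell in 2 capitalised motifs. All 3 windows held CCGCCC in 2 copies, a motif found in 32.7% of 32851 promoter windows of this length. CCAAT was found once in Sox11 and once in Sox2 and is in 33.8% of windows. A Sox core was found in Sox2 alone, as ACAAAG at 206 bases before the start, a motif in 16.5% of windows, and ACAAT, in 27.7% of windows, was in 0 of the 3. The windows held 18 (Sox8), 17 (Sox11) and 27 (Sox2) CpG pairs, against a median of 6 over all windows. A match is a description of the letters and not a bound site.

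The list of Sox10 targets and targets of its relatives held more lower than higher genes. Of 21 genes in a list compiled from background knowledge, with earlier results of these data known, 20 were in the table. Of these, 9 were lower, 1 higher and 10 not called, with a median log2 fold change of -0.22. That is 45% lower and 5% higher, against 13.8% lower and 15.8% higher among all genes tested. The list shares genes with the precursor, myelin and astrocyte lists, and 58.3% of the precursor markers were lower. These shares are therefore a description and not a test. Ednrb, an endothelin receptor, had 580 ± 24.2 CPM in Chd7iKO cells and 963 ± 127 CPM in Control cells (SD; log2 fold change -0.73, edgeR adjusted p = 1.07e-04). Bcas1, a marker of early myelinating cells, had 865 ± 39.5 CPM in Chd7iKO cells and 1258 ± 106 CPM in Control cells (log2 fold change -0.54). Pdgfra was lower by a small margin (log2 fold change -0.20, adjusted p = 0.0341), and its call ended without Control 3, 4, 5 or 7 or Chd7iKO 2, 4 or 5. Cnp, an enzyme of myelin, fell by 0.43 and the small GTPase gene Rab33a by 0.59 on the log2 scale. For Ednrb, Bcas1, Cnp and Rab33a, named for the smallest adjusted p of the list, all 5 Chd7iKO libraries lay below all 7 controls. This held for 6 of the 20 targets and for 6.32% of all genes tested, and the opposite for 0 of the 20 and 6.2%.

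Other listed targets did not pass. The myelin basic protein gene Mbp had 1979 ± 417 CPM in Chd7iKO cells and 2060 ± 345 CPM in Control cells (SD; log2 fold change -0.06, edgeR adjusted p = 0.798).

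Of 25 factors that act with SoxE proteins or on the same genes, 7 were lower, 2 higher and 16 not called, with a median log2 fold change of -0.04. That is 28% lower and 8% higher, against 13.8% lower and 15.8% higher among all genes tested, and the 9 called either way are a share near the 29.5% of all genes. Myrf, which Sox10 induces and then works with on myelin genes, had 218 ± 27.8 CPM in Chd7iKO cells and 334 ± 50.4 CPM in Control cells (SD; log2 fold change -0.62, edgeR adjusted p = 0.00139). Zfp488, a zinc finger factor of oligodendrocytes, fell by 0.41 and Tcf7l2, an HMG-box effector of Wnt signalling, by 0.30 on the log2 scale. Nkx2-2, a homeodomain factor of the lineage, fell by 0.41 (adjusted p = 0.0261), but leaving out Control 4, Chd7iKO 1, Chd7iKO 4 or Chd7iKO 5 ended the call (0.0510 to 0.0662). Nfatc1, a calcium-regulated factor that cooperates with Sox10, was higher (log2 fold change 0.32, adjusted p = 0.00220). Myrf, Zfp488 and Nkx2-2 stand in the list of targets as well.

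Among 8 partner factors of SoxB1 and SoxC proteins, 3 were higher, 0 lower and 5 not called in edgeR, or 37.5% higher against 15.8% of all genes tested. At an unadjusted p under 0.05, 4 were higher and 0 lower, against 21.3% of all genes higher. The POU factor gene Pou3f1 had 40.5 ± 8.14 CPM in Chd7iKO cells and 21.3 ± 6.87 CPM in Control cells (SD; log2 fold change 0.93, edgeR adjusted p = 0.00473), above every control in 5 of 5 libraries. Nfib (0.30, adjusted p = 0.00636) and Pou3f3 (0.22, adjusted p = 0.0429) were also higher. With 1 library left out, Pou3f3 passed when that was Control 1, Control 3 or Chd7iKO 4, and in none of the other 9 fits. Pou3f1 lost its call without Chd7iKO 4 and 5 (log2 fold change 0.74, adjusted p = 0.0593) and with the score of other cell types (0.64, adjusted p = 0.0930). Of the 3, Nfib alone was called in each of these fits. Of the 4 TCF/LEF genes, which share the HMG box, Tcf7l2 was lower, Lef1 (0.72, adjusted p = 0.0196) and Tcf7 (0.32, adjusted p = 0.0497) were higher and Tcf7l1 did not pass. That is 25% lower and 50% higher, against 13.8% lower and 15.8% higher among all genes tested. Only 1 of the 4 was called without Chd7iKO 4 and 5, without either of them, or with that score, and Tcf7 passed only without Control 1, 2 or 6 among the fits with 1 library left out.

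**Figure D4:**
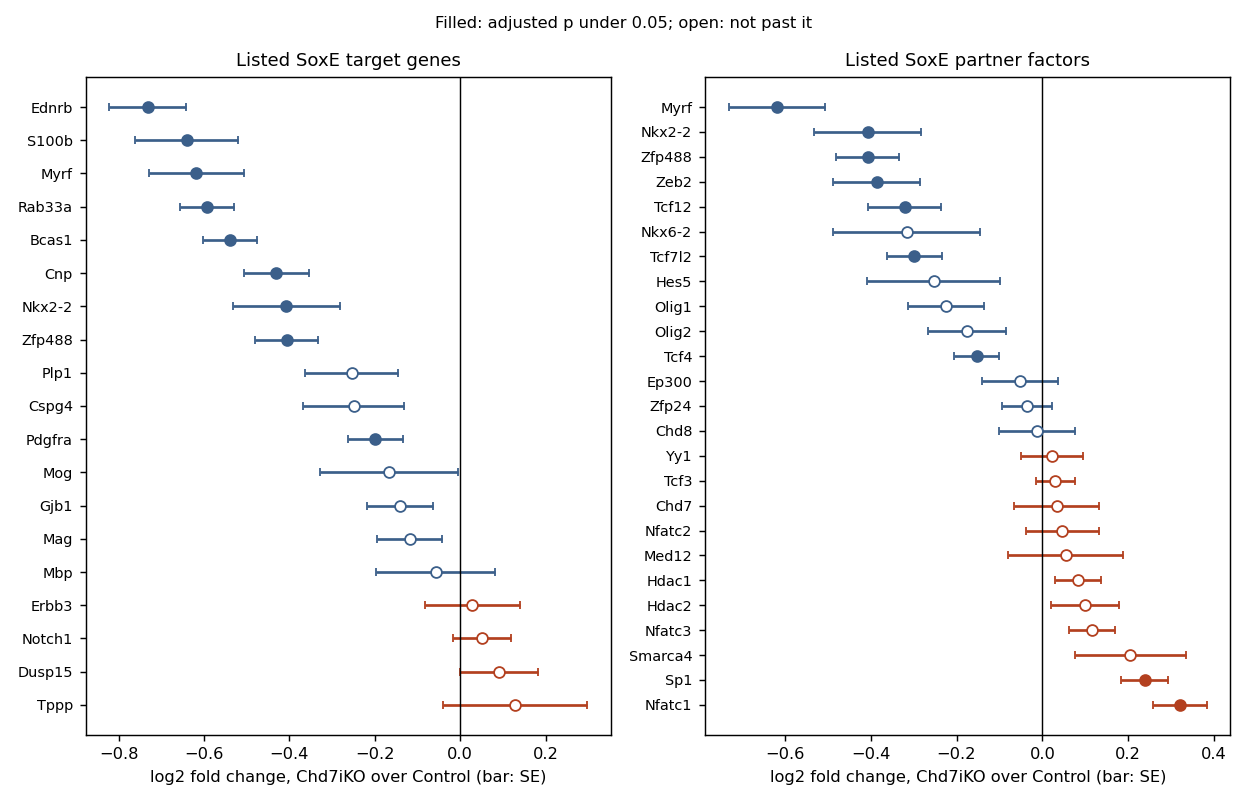
Log2 fold change of Chd7iKO over Control (horizontal axis) with its SE for 19 listed SoxE target genes (left panel) and 25 partner factors (right panel); filled points passed an adjusted p of 0.05. The 9 filled targets drawn all lie left of 0, and the 1 target called higher is not drawn. The partner factors lie on both sides of 0, with 7 filled points to the left and 2 to the right.

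Markers of the lineage and of other cells were counted by the same rule, under which 13.8% of all genes tested were lower and 15.8% higher. The myelin list (18.2% lower, 0% higher) and the astrocyte list (8.3% each way) were near or below these shares. At an unadjusted p under 0.05 in edgeR, 19.4% of all genes were lower and 21.3% higher. Among 12 precursor markers 7 were lower and 0 higher (9 and 0 at an unadjusted p under 0.05), and among 11 myelin markers 2 were lower and 0 higher (3 and 2 unadjusted). Of the markers of other cells, 10 of 14 microglial, 7 of 11 endothelial and 8 of 11 mural and fibroblast genes were higher and 0 lower in edgeR, and 12, 11 and 9 were higher and 0 lower at an unadjusted p under 0.05. These counts depended on the libraries used. Calls over all genes did too, with 4167 in the full fit and 1747 without Chd7iKO 4 and 5. Every Chd7iKO library lay above every control for 3 microglial, 0 endothelial and 0 mural and fibroblast genes, against 6.2% of all genes tested. Without Chd7iKO 5 alone, 5 microglial, 0 endothelial and 3 mural and fibroblast genes were called, and without Chd7iKO 4 alone 6, 2 and 5. Without both, 2 microglial, 0 endothelial and 1 mural or fibroblast genes were called (7, 0 and 3 at an unadjusted p under 0.05), with median log2 fold changes of 0.53, 0.42 and 0.55. Left out singly, Control 2, Control 4 or Chd7iKO 2 also left 6 microglial calls, and Chd7iKO 2 left 5 mural and fibroblast calls, while without Control 6 or Chd7iKO 1 all 11 endothelial genes were called. The microglial sum was 501 to 639 CPM in Chd7iKO and 240 to 552 CPM in Control libraries, and the mural sum 1595 to 1967 CPM in Chd7iKO and 1445 to 2044 CPM in Control libraries. Most of the mural sum is Cspg4, which is a precursor marker as well (1225 ± 158 CPM in Chd7iKO and 1456 ± 239 CPM in Control cells, SD). The other 10 mural and fibroblast genes summed to 319 to 845 CPM in Chd7iKO and 130 to 382 CPM in Control libraries, with a median log2 fold change of 0.93. Of 12 astrocyte markers 1 was higher and 1 (S100b, also in the list of targets) lower. Of the lists' genes, the myelin marker Opalin and the neuronal marker Neurod6 were not analysed here, and 0 of the measured markers were at 0. Of 13 neuronal markers 4 were lower and 0 higher (5 and 1 unadjusted), with sums of 1478 to 1612 CPM in Chd7iKO and 1639 to 1924 CPM in Control libraries. Most of that sum is Map2 (means of 808 CPM in Chd7iKO and 931 CPM in Control cells) and Dcx (322 and 455 CPM), both called lower. The neuronal list as a whole had a median log2 fold change of -0.0057, with 7 of 13 genes negative and a range of -0.50 to 1.05. The part of these cells in the Sox differences was not tested.

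**Figure D5:**
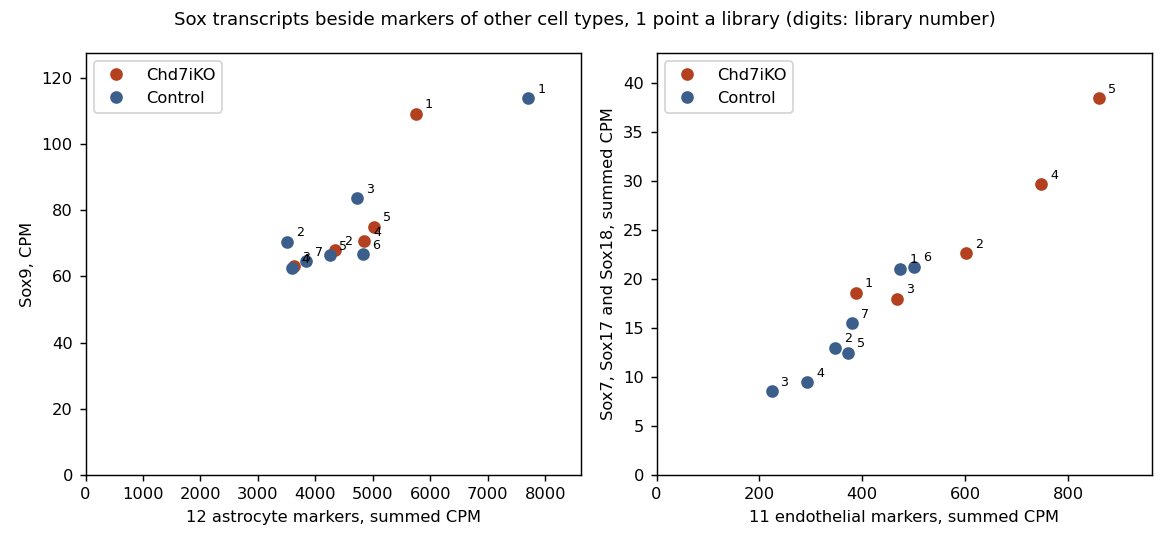
Sox9 against 12 summed astrocyte markers (left) and the summed SoxF genes against 11 summed endothelial markers (right), all axes in CPM from 0, with each point a Chd7iKO or Control library. Chd7iKO 1 and Control 1 are high for both Sox9 and the astrocyte sum, and Chd7iKO 5 is highest for both the SoxF genes and the endothelial sum.

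For each of the 8 genes, the genes most like it across libraries were found from log2 CPM after subtraction of the group means, among 10260 genes with at least 10 CPM. Points are the 12 libraries, which share their depth and their mix of cells, so the values of r are descriptions. Sox9 was most like Csrnp1 (r = 0.98), Gadd45g (0.97) and Socs3 (0.97), the last an inhibitor of cytokine signalling. Sox10 was most like Tox3 (r = 0.97), itself an HMG-box gene, then Sarm1 and Gpr85 (0.96 each). Sox8 was most like Shc2 (r = 0.95), Sox5 like the phosphodiesterase gene Pde4d (0.92), Sox6 like the integrin gene Itga9 (0.94), Sox2 like the kinase gene Mapk14 (0.96), Sox4 like the autophagy gene Atg4a (0.96) and Sox11 like Phtf1os (0.95). None of the 8 genes had another of the 8 among its closest 3. With 3 places among 10260 genes, this does not show whether the 8 genes vary together.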

How the data were processed

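RNA of 12 libraries was compared, with groups taken from the sample titles and genotype labels. Estimated counts, deposited by the authors without scaling, covered 14107 genes; 1.76% of values were not whole, 0 of them in the 8 Sox genes, and counts were rounded. Per the submitters' processing notes, featureCounts, TopHat2, Bowtie, edgeR and mm10 were used, in no stated order or version; the sources used here do not state the annotation. The log2 fold changes and p-values in the authors' deposited table were only set beside those computed here. Deposited lists of bound genes hold names only.

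The main test was edgeR 4.0.16 (R 4.3.3), quasi-likelihood F-test, with TMM scaling and no covariate, two-sided; p-values were adjusted by Benjamini-Hochberg across the 14107 genes, with a threshold of 0.05; its expression filter removed 0 genes. CPM were computed after TMM scaling. For each of the 8 Sox genes an exact permutation test over libraries was run (8 tests, unadjusted). Levels per kilobase used exonic lengths and coordinates of GENCODE vM21 (mm10). Promoters came from RefSeq. Within groups, 31 pairs of libraries had a chi-square per degree of freedom of at least 9.14, so each library counted as 1 replicate. The biological coefficient of variation was 14.7%.

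The members, gene lists and library exclusions were chosen with earlier results of these data known. Named genes are the members, the other Sox genes, Chd7, up to 4 called genes of each list by smallest adjusted p, Olig2, Nkx2-2, Myrf, Tcf7l2, Mbp, Pdgfra, and the 3 genes most like each member, leaving out predicted genes; Esr1, Tcf7l1 and overlapping genes fall outside this rule, and not all genes it selects are described. Of the SoxE targets tested, 1 is counted in the totals but is not reported here or drawn. Alternatives were other scalings, DESeq2 1.42.0, limma 3.58.1 voom, filters, thresholds, a replicate block, a cell type score, and left-out libraries. The code was tested on simulated data.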

Additional observations from a re-analysis of the deposited data

Results flagged for a closer look

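Of 34 groups of libraries examined for a library far from the others, 4 were past Dixon's 95% critical value, where chance gives about 1 in 20. Sox9 had 109 CPM in Chd7iKO 1, with the next Chd7iKO library at 75.01 CPM. Sox9 also had 114 CPM in Control 1, with the next control at 83.7 CPM. Sox5 had 155 CPM in Chd7iKO 1, against 135 CPM in the next Chd7iKO library. Sox11 had 110 CPM in Chd7iKO 1, against 95.4 CPM in the next. Chd7iKO 1 was thus the high library in each of the 3 Chd7iKO groups past that value, and without it the log2 fold changes were -0.13 for Sox9, -0.24 for Sox5 and 0.072 for Sox11.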

How the results depend on the processing

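Sox8 was called lower in all 26 alternatives, Sox10 in 25 and Sox5 in 23. The count of called Sox genes, 3 of 8, was 6 with limma voom, and 5 without Controls 3 and 6, at an adjusted p under 0.1, with the replicate block, and with libraries 1 to 5 of each group and no block (added after the data were seen), and 3 to 5 with each library left out, where 5 came without Control 6. It was 2 with the cell type score (1 lower, 1 higher), without Chd7iKO 4 and 5, and at an adjusted p under 0.01. All genes called numbered 6462 with limma voom, 1553 with the cell type score (1500 shared with the 4167), 1747 without Chd7iKO 4 and 5 (1719 shared), 2056 at an adjusted p under 0.01, and 2690 (without Chd7iKO 5) to 4612 with a library left out. They numbered 4305 without Controls 3 and 6 and 4818 with the replicate block. A looser threshold or other libraries change the calls among all genes too, so the count of any list cannot be read alone. The 3 called among the other 8 Sox genes became 5 with DESeq2, 7 with limma voom, 6 with the block and at an adjusted p under 0.1, 1 with the score, without Chd7iKO 4 and 5 and at an adjusted p under 0.01, and 1 to 5 with a library left out. SoxE partners called (9) became 4 with the score and 5 at an adjusted p under 0.01. SoxB1 and SoxC partners (3) and TCF/LEF genes (3) each became 1 with the block, with the score and without Chd7iKO 4 and 5. TCF/LEF genes were also 1 at an adjusted p under 0.01, and 1 to 3 with a library left out. SoxE targets called stayed between 7 and 12. Chd7 changed sign with limma voom (-0.062), without Controls 3 and 6 (-0.053), and lay between -0.029 and 0.090 with a library left out. Sox9 changed sign with the block (-0.039), the score (-0.041) and libraries 1 to 5 without a block (-0.045), and ran from -0.13 (without Chd7iKO 1) to 0.16 with a library left out, below 0 without Control 4 as well. Mbp did with the block (0.0084) and libraries 1 to 5 without a block (0.033), and ran from -0.13 to 0.044 with a library left out, above 0 without Control 7 or Chd7iKO 1. The causes were not tested. The lowest count of a Sox member, 1945, leaves little counting error beside the spread between libraries.

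Replicate numbers are shared between the groups. Same-numbered libraries correlated at -0.18 to 0.38 in their deviations from the group means, with 1 of 5 pairs over 0.1. That pair was Chd7iKO 1 and Control 1, and 1 of 5 Chd7iKO libraries was best matched to its own number. The main test therefore used no pairing. These values cannot tell whether some same-numbered libraries share a litter or a batch. With the replicate block, 4818 genes were called.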

Other observations

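The authors' deposited table gave the same signs for the 8 Sox genes and an adjusted p under 0.05 for Sox8, Sox10 and Sox5. In the authors' deposited table, Sox7 (adjusted p = 0.0213) and Sox18 (adjusted p = 0.0182) also passed, which they did not in the edgeR test used here. The authors' deposited list of genes both lower and bound holds Sox8, Sox10 and Sox21 but not Sox5. The smallest absolute log2 fold change of a gene in that list is 0.264 in the authors' deposited table, where Sox5 is at -0.20 (adjusted p = 0.0225). Genes in that list reach an authors' adjusted p of 0.133, so it is not limited to an adjusted p under 0.05.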
